A study of Mus musculus with 24 samples.

Results

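The insulin-like growth factor and Akt pathway was followed through 10 genes, taken from a fixed list of symbols: Igf1, Igf1r, Igfbp3, Igfbp4, Igfbp5, Irs1, Irs2, Akt1, Akt2 and Eif4ebp1. The list was chosen with earlier results of these data known, so shares of its members called are description only. All 10 were measured, out of 19938 genes that the array reads through a probe set with a single gene symbol. Where a gene had more than 1 such probe set, the brightest, by its mean over the 24 arrays, stood for the gene. The data are Affymetrix array intensities from 24 mouse muscle samples, with 6 arrays in each of 4 groups: quadriceps of controls, quadriceps of nebulin conditional knockouts (cKO), soleus of controls and soleus of cKO. Every mouse was a male of 40 to 42 days on a mixed background (C57BL/6J with 1219S6/SvEvTac, as spelled in the labels). Both copies of the nebulin gene (Neb) carried the conditional allele in all 4 groups, the controls included. The cKO mice also had 1 copy of the Cre transgene MCK-Cre, described in the labels as specific to muscle, and the controls had none. Cells other than muscle fibres in a cKO muscle piece are thus not the ones the transgene targets. Per the series' design text, the quadriceps is much smaller in the cKO, while the soleus is not significantly so.

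IGF-1 is a secreted growth factor that binds the receptor tyrosine kinase IGF1R on the cell surface. Binding proteins (the IGFBP family) hold the ligand in the extracellular space and set how much of it reaches the receptor. The activated receptor phosphorylates the adaptors IRS1 and IRS2, which recruit PI3 kinase. PI3 kinase then activates the Akt kinases. Akt promotes protein synthesis through mTOR, which inactivates the translation repressor 4E-BP1 (Eif4ebp1), and holds back the FoxO transcription factors. In skeletal muscle this route is known for driving fibre growth and glucose uptake. Much of it works by phosphorylation, which arrays of transcripts do not read.

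The deposited intensities were turned to log2, so that a difference of 1 is a 2-fold difference, and 15999 genes above a limit for dim signals were tested together in 1 limma model of the 4 group means, with p-values adjusted over all of them and called under 0.05. The 30th percentile of each array, between 3.51 and 3.72, served as the dim limit, and every member lay above it on every array. Neb itself was lower where the labels say so, by 1.45 in quadriceps (SE 0.11, limma adjusted p = 1.4e-10) and by 1.14 in soleus (SE 0.11, adjusted p = 2.27e-08), with no overlap between cKO and control arrays of a muscle. Fibre markers were bright on every array: the summed intensity of 9 of them, Neb left out, lay between 41708.4 and 51379.2. In the limma weights for array quality, 3 control arrays stood lowest, at 0.207 (quadriceps 4), 0.389 (quadriceps 6) and 0.394 (soleus 1), against a highest weight of 1.77. Member calls that changed without them are given beside the results. The balance of calls over all genes moved with the scaling. Among called genes, 55.7% were higher in cKO quadriceps as deposited and 37.5% with arrays centred on their 75th percentile. In cKO soleus 57% were higher as deposited, 66.9% after median centring and 47.3% after 75th percentile centring. For the difference between these changes it was 60.2% as deposited, 45.6% after median centring and 48.7% after 75th percentile centring. For soleus minus quadriceps it was 45.4% in controls and 41.3% in cKO as deposited, 22.3% and 24% after median centring, and 56.2% and 68.6% after 75th percentile centring. Median centring moved the median of all genes in the control comparison from 0.03 to -0.07.

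Of the 10 members 6 were higher in cKO quadriceps and none was lower. They were the ligand Igf1, its receptor Igf1r, the binding proteins Igfbp3 and Igfbp4, and both kinases Akt1 and Akt2. In the soleus 3 members were higher and none was lower: Igf1, Igf1r and Igfbp4. Over all 15999 genes 40.0% were called in quadriceps (22.3% higher and 17.7% lower in cKO) and 23.1% in soleus (13.2% higher and 9.94% lower). The median change of the members was 0.34 in quadriceps and 0.22 in soleus, against -0.01 and -0.02 over all genes. Every cKO array lay above every control array for 4 members in quadriceps (Igf1, Igf1r, Igfbp4 and Akt2) and for 1 in soleus (Igf1r), where 10.1% and 7.82% of all genes did so. No member had every cKO array below every control, as 6.06% of all genes did in quadriceps and 4.96% in soleus.

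**Figure D1:**
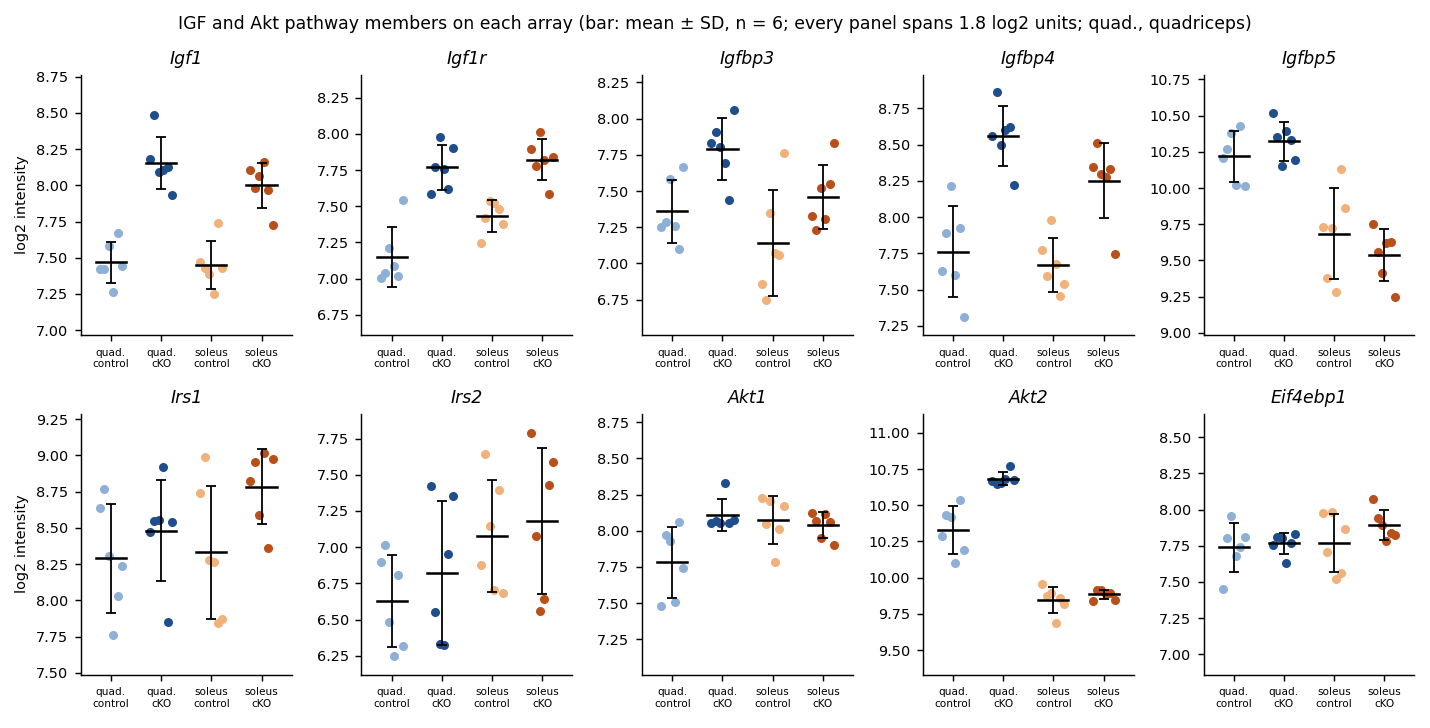
Log2 intensity of the 10 members on each of the 24 arrays, in groups of 6 (horizontal axis: muscle and genotype), with the mean and SD in black. Igf1, Igf1r and Igfbp4 are higher in cKO of both muscles, Akt2 is higher in cKO of the quadriceps, and Irs1 and Irs2 spread widely inside every group.

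The ligand Igf1 (Entrez gene 16000, chr10:87858265-87937047 in GRCm38.p6, the assembly of mm10) rose in both muscles. In quadriceps its log2 intensity ran from 7.27 to 7.67 in controls (median 7.43) and from 7.93 to 8.48 in cKO (median 8.12). All 6 cKO arrays thus read above all 6 controls, by 1.61-fold on average (0.69 in log2, with an SE of 0.09 and limma adjusted p = 1.64e-06). In soleus the controls ran from 7.25 to 7.74 (median 7.43) and the cKO from 7.72 to 8.16 (median 8.02). Here 5 cKO arrays exceeded every control, and the change was 0.55 (SE 0.09, 1.46-fold, adjusted p = 6.7e-05). The group means fell into a high pair, the cKO muscles, and a low pair, the control muscles. Neither pair differed between the muscles beyond its spread (adjusted p = 0.902 in controls, 0.21 in cKO). Set against each other, the changes of the muscles were 0.14 apart (95% interval -0.13 to 0.41, adjusted p = 0.548).

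Igf1r (Entrez gene 16001, chr7:67952257-68233668) encodes the receptor and rose in both muscles as well. In quadriceps it ran from 7.004 to 7.54 in controls (median 7.06) and from 7.58 to 7.98 in cKO (median 7.76). The soleus arrays ran from 7.25 to 7.54 in controls (median 7.45) and from 7.59 to 8.01 in cKO (median 7.83). The cKO and control arrays did not overlap in either muscle. The change was 0.62 in quadriceps (SE 0.09, 1.54-fold, adjusted p = 5.95e-06) and 0.39 in soleus (SE 0.09, 1.31-fold, adjusted p = 0.00228). Receptor transcript was lowest in quadriceps controls, where soleus controls read 0.28 higher (SE 0.09, adjusted p = 0.0197), a call lost with arrays centred on their median (0.17, adjusted p = 0.171). In cKO the muscles were within 0.05 of each other (95% interval -0.14 to 0.24, adjusted p = 0.694). The difference between the cKO changes was 0.23 (adjusted p = 0.267), and it was 0.35 with adjusted p = 0.0306 without the 3 arrays of lowest weight.

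The binding proteins split by member. Igfbp4 (Entrez gene 16010, chr11:99040005-99052655), known mainly as an inhibitor that sequesters the ligand until a protease cleaves it, rose in both muscles. In quadriceps it ran from 7.31 to 8.21 in controls (median 7.76) and from 8.22 to 8.86 in cKO (median 8.58). The groups did not overlap, though the highest control came close to the lowest cKO array, and the change was 0.80 (SE 0.13, 1.74-fold, adjusted p = 2.91e-05), or 0.64 without the 3 arrays of lowest weight. The soleus range was 7.46 to 7.98 in controls (median 7.63) and from 7.75 to 8.51 in cKO (median 8.31), with cKO array 6 inside the control range and the other 5 above it. The change was 0.58 (SE 0.13, adjusted p = 0.00174). The muscles did not differ in controls (-0.09, adjusted p = 0.627). In cKO the soleus read lower by 0.31 (adjusted p = 0.0816), in 6 of 6 same-numbered pairs, and passed with the animal as a fixed (adjusted p = 0.011) or random block (0.0372). That difference also passed without the 3 arrays of lowest weight (adjusted p = 0.0487).

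The 3 members called higher in both muscles are each shown with a listed promoter, since they moved together. Each window runs from 250 bases before to 50 bases after a transcription start listed by RefSeq in GRCm38.p6. It is written 5′ to 3′ on the gene's strand, which is the plus strand for all 3. Igf1 is at chr10:87860861-87861160, Igf1r at chr7:67952007-67952306 and Igfbp4 at chr11:99040994-99041293. The Igf1 and Igfbp4 windows lie inside the gene spans given above, which begin upstream at 87858265 and 99040005. Starts further upstream in these genes were not shown. Capitals mark the TATA box, the only searched motif found in them.
Igf1: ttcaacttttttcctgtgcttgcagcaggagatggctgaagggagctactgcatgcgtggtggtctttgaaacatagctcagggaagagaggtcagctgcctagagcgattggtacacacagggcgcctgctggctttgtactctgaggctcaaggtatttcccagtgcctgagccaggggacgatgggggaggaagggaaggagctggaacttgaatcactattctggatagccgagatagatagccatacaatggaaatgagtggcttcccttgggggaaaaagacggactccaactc
Igf1r: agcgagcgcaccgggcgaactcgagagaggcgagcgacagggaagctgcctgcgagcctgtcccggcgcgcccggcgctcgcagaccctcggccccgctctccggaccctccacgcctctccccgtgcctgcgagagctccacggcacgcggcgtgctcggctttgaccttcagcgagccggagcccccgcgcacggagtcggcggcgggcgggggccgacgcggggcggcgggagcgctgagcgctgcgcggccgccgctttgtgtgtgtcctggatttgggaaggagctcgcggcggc
Igfbp4: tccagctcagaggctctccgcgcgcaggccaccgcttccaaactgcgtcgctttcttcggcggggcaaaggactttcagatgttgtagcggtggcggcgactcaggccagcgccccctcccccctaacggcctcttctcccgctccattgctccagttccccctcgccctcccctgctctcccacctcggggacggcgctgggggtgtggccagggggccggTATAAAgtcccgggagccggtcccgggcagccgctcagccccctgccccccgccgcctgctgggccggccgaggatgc
These windows differ in base content. The Igf1 window holds 52.3% G and C with 6 CG pairs, close to the median of 52.7% over the 32851 promoters in the table. Igf1r holds 76.0% with 48 CG pairs and Igfbp4 71.3% with 27, both above the upper quartile of 61.7%. Each promoter was searched on both strands for a FoxO core (TGTTTAC or GTAAACA), an amino acid response core (TGATGNAAT or ATTNCATCA) and a TATA box (TATAAA or TTTATA). Such matches occur in 3.65%, 0.965% and 13.6% of all promoters. The TATA box of Igfbp4 starts 28 bases before the start site, written as position -28. No promoter was listed for Eif4ebp1, and Akt1 and Akt2 had more than 1 each. Of the 13 promoters listed for the other members, 1 of Akt1 held a FoxO core, at position -161, and 1 of Akt2 an amino acid response core, at -86. These are matches of letters and nothing was measured on them.

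Igfbp3 (Entrez gene 16009, chr11:7206086-7215498), the main carrier of IGF-1 in the blood, moved less. In quadriceps it ran from 7.10 to 7.67 in controls (median 7.28) and from 7.44 to 8.06 in cKO (median 7.82), with 5 cKO arrays above every control. It rose by 0.43 (SE 0.14, 1.35-fold, adjusted p = 0.0162). In soleus the controls spread from 6.75 to 7.76 (median 7.07) and overlapped most cKO arrays, which ran from 7.23 to 7.83 (median 7.42). The soleus change of 0.32 (SE 0.14) missed the threshold (adjusted p = 0.102). It passed without soleus control 6, the highest control (0.44, adjusted p = 0.011). Between muscles Igfbp3 was lower in soleus in 5 of 6 same-numbered pairs of each genotype, by 0.22 in controls (adjusted p = 0.238, and 0.0371 without soleus control 6) and by 0.33 in cKO (adjusted p = 0.0766, and 0.0136 with the animal as a fixed and 0.0356 as a random block).

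Igfbp5 (Entrez gene 16011, chr1:72858065-72874865), a matrix-bound binding protein that muscle cells make as they differentiate, followed the muscle rather than the genotype. In quadriceps it ran from 10.01 to 10.43 in controls (median 10.24) and from 10.15 to 10.52 in cKO (median 10.34). In soleus it ran from 9.28 to 10.13 in controls (median 9.73) and from 9.25 to 9.75 in cKO (median 9.59). The control and cKO arrays overlapped in both muscles, with changes of 0.10 (adjusted p = 0.491) and -0.15 (adjusted p = 0.393). The soleus read below the quadriceps by 0.53 in controls (SE 0.12, 1.45-fold, adjusted p = 0.000796) and by 0.79 in cKO (SE 0.12, 1.73-fold, adjusted p = 1.56e-05). It was lower in 6 of 6 same-numbered pairs of each genotype. In cKO no soleus array reached the lowest quadriceps array.

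**Figure D2:**
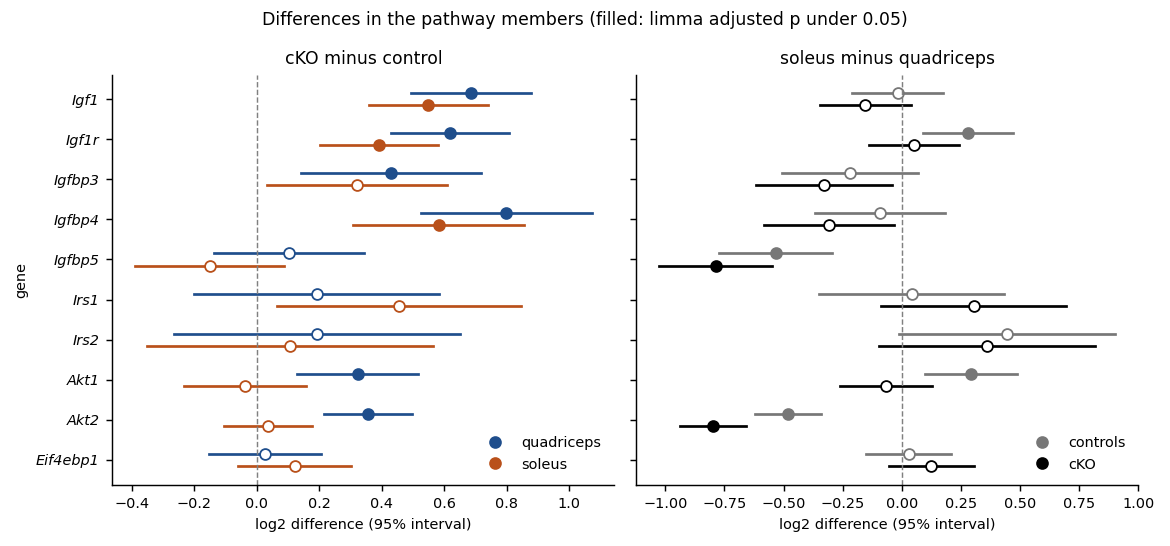
Log2 differences of the 10 members with 95% intervals, cKO minus control on the left (quadriceps blue, soleus orange) and soleus minus quadriceps on the right (controls grey, cKO black); filled points passed the adjusted p of 0.05. Igf1, Igf1r and Igfbp4 are filled for both muscles on the left, while Igfbp5 and Akt2 lie furthest below 0 on the right.

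Markers of several other cell types moved along with Igf1, Igf1r, Igfbp3 and Igfbp4. Macrophages, fibroblast-like cells and fibres are all known to make IGF-1 or its binding proteins. In bulk muscle, more cells of a type and more RNA per cell cannot be told apart. The marker counts stand beside 22.3% higher and 17.7% lower of all genes in cKO quadriceps, and 13.2% and 9.94% in cKO soleus. Of 10 macrophage markers 8 were higher in cKO quadriceps and 7 in cKO soleus, and none was lower. Their summed intensity ran from 933.4 to 1504.2 in quadriceps controls and from 1581.4 to 1913.0 in cKO. In soleus the sums were 834.7 to 1060.8 in controls and 1173.3 to 1799.1 in cKO, so the groups did not overlap in either muscle. Of 9 measured markers of fibro-adipogenic progenitors 6 were higher and none lower in each muscle. Their sum was 6594.1 to 10516.4 in quadriceps controls, 9937.4 to 11942.8 in quadriceps cKO, 7661.8 to 9156.9 in soleus controls and 7865.3 to 10979.1 in soleus cKO. Of 9 satellite cell markers 8 were higher in quadriceps and 4 in soleus, with none lower. Among them is Des, also listed here as a fibre marker, which was higher in cKO quadriceps (0.37) and cKO soleus (0.40). The satellite sum, Des included, was 2799.7 to 4142.1 in quadriceps controls, 4901.1 to 5749.4 in quadriceps cKO, 4166.8 to 5189.7 in soleus controls and 5394.7 to 5884.4 in soleus cKO, with no overlap by genotype. The share of Des in this sum was not separated. Of 6 adipocyte markers 4 were higher in quadriceps and none passed in soleus. The adipocyte sum was 1682.0 to 3698.0 in quadriceps controls, 2866.8 to 7477.5 in quadriceps cKO, 1436.5 to 2164.5 in soleus controls and 1285.3 to 2819.0 in soleus cKO. Of the 10 endothelial markers none passed in quadriceps and 7 were lower in soleus, with sums of 2916.3 to 4405.7 in controls and 2170.7 to 2557.8 in cKO. Of 6 tendon markers 1 was higher and 1 lower in quadriceps, and 1 was higher and 4 lower in soleus (median -0.67), with overlapping sums of 3001.1 to 3985.3 in soleus controls and 2969.1 to 4179.5 in soleus cKO. Of 4 measured Schwann cell markers 1 was higher and 1 lower in quadriceps and none passed in soleus. The Schwann cell sum did not overlap in quadriceps, at 662.9 to 1168.1 in controls and 1194.6 to 1396.0 in cKO, and did in soleus, at 911.6 to 1228.8 and 1000.5 to 1335.4. No marker of these lists was dim on every array of a group. The part of these cells in the levels of Igf1, Igf1r, Igfbp3 and Igfbp4 was not tested.

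The adaptors Irs1 and Irs2, which couple the receptor to PI3 kinase, spread widely inside groups, with SDs of 0.26 to 0.46 for Irs1 and 0.32 to 0.51 for Irs2. Irs1 (Entrez gene 16367, chr1:82233105-82291439) ran from 7.76 to 8.77 in quadriceps controls (median 8.27) and from 7.85 to 8.92 in quadriceps cKO (median 8.54). Soleus values ran from 7.84 to 8.99 in controls (median 8.27) and from 8.36 to 9.01 in cKO (median 8.89). The groups overlapped, and neither the quadriceps change (0.19, SE 0.19, adjusted p = 0.434) nor the soleus change (0.45, SE 0.19, adjusted p = 0.0864) passed. The soleus change did pass without soleus control 1 (0.54, adjusted p = 0.0443), without soleus control 2 (0.59, adjusted p = 0.0233) and without the 3 arrays of lowest weight (0.54, adjusted p = 0.0339). The array has a second, dim Irs1 probe set, whose group means lay between 4.47 and 5.26 and which disagreed with the first. It was lower in cKO quadriceps (-0.62, adjusted p = 0.0222) and higher in cKO soleus (0.66, adjusted p = 0.0224). The difference between these changes, quadriceps minus soleus, was -1.28 (adjusted p = 0.00553). In controls it read lower in soleus than in quadriceps (-0.78, adjusted p = 0.00524), where the first set gave 0.04 (adjusted p = 0.886). The direction of the cKO change of Irs1 in quadriceps and its difference between control muscles are therefore not settled by this array.

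Irs2 (Entrez gene 384783, chr8:10984681-11008929) ran from 6.25 to 7.01 in quadriceps controls (median 6.65) and from 6.32 to 7.42 in quadriceps cKO (median 6.75). In soleus it ran from 6.69 to 7.64 in controls (median 7.01) and from 6.56 to 7.79 in cKO (median 7.25), and all 4 ranges overlapped. No genotype difference passed (0.19 in quadriceps, adjusted p = 0.505, and 0.11 in soleus, adjusted p = 0.785). Arrays of the same genotype and number ran in parallel across the muscles: Irs2 was higher in soleus than in the quadriceps array of its number in 5 of 6 controls and in 6 of 6 cKO. Over the 6 pairs of a genotype the difference averaged 0.45 (SD 0.25) for controls and 0.36 (SD 0.12) for cKO. Without a block neither passed (adjusted p = 0.126 and 0.222), and with the animal as a fixed block both did (adjusted p = 0.000402 and 0.00333). With the animal as a random block neither did (adjusted p = 0.057 and 0.126). On its brighter probe set, Irs1 was higher in soleus in 6 of 6 cKO pairs (by 0.30) and 3 of 6 control pairs (0.04). In cKO it passed with the fixed block (adjusted p = 0.0221) but not with the random one (0.136) or without a block (0.226). That a number marks 1 animal was inferred from the arrays, not stated by the labels, which give the 2 cKO arrays of number 4 different ages.

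**Figure D3:**
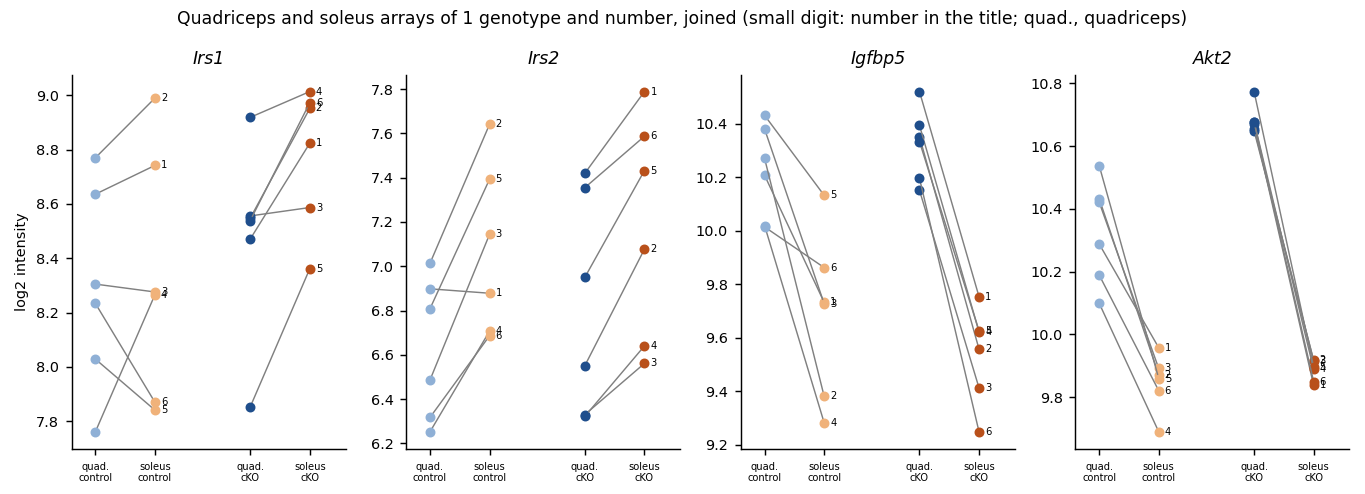
Log2 intensity of Irs1, Irs2, Igfbp5 and Akt2 with each quadriceps array joined to the soleus array of the same genotype and number (small digits); controls on the left and cKO on the right of each panel. Irs2 lines run upward for 11 of the 12 numbers, and all Igfbp5 and Akt2 lines run downward.

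Both Akt kinases, the central kinases of the pathway, rose in quadriceps, and neither was called in soleus. Akt1 (Entrez gene 11651, chr12:112653821-112674884) ran from 7.48 to 8.06 in quadriceps controls (median 7.84) and from 8.05 to 8.33 in quadriceps cKO (median 8.06). Of the cKO arrays 3 exceeded every control, and the change was 0.32 (SE 0.09, 1.25-fold, adjusted p = 0.0084). Over the alternatives other than single arrays left out, this change ran from 0.23 to 0.32, with adjusted p up to 0.0476. Soleus arrays ran from 7.79 to 8.23 in controls (median 8.11) and from 7.90 to 8.13 in cKO (median 8.06), a change of -0.04 (95% interval -0.23 to 0.16, adjusted p = 0.828). The difference between the muscles' changes was 0.36 (SE 0.13, adjusted p = 0.0781), and it passed with the animal as a fixed (adjusted p = 0.0482) or random block (0.0379), without quadriceps control 5 (0.41, adjusted p = 0.0432) and without soleus control 4 (0.42, adjusted p = 0.0406). Quadriceps controls were the low group, 0.29 below soleus controls (SE 0.09, adjusted p = 0.0185). That call was lost without quadriceps control 1 (0.23, adjusted p = 0.0563), without the 3 arrays of lowest weight (0.18, adjusted p = 0.173), with array weights (0.19, adjusted p = 0.108), after median centring (0.19, adjusted p = 0.179) and with only the arrays compared (0.29, adjusted p = 0.0741).

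Akt2 (Entrez gene 11652, chr7:27591552-27640826), the isoform known for insulin-stimulated glucose uptake in muscle, ran from 10.10 to 10.54 in quadriceps controls (median 10.35) and from 10.65 to 10.77 in quadriceps cKO (median 10.67). In soleus it ran from 9.69 to 9.96 in controls (median 9.86) and from 9.84 to 9.92 in cKO (median 9.89). Quadriceps cKO stood above quadriceps controls, both stood above all soleus arrays, and the soleus groups overlapped. The cKO change was 0.36 in quadriceps (SE 0.07, 1.28-fold, adjusted p = 0.000167) and 0.04 in soleus (95% interval -0.10 to 0.18, adjusted p = 0.758). Over the alternatives other than single arrays left out, the quadriceps change ran from 0.26 to 0.41, with adjusted p up to 0.00405. The difference between the changes of the muscles, 0.32 (SE 0.10, adjusted p = 0.0291), was the only one among the members to pass, where 12.3% of all genes passed, 7.39% higher and 4.89% lower. It was lost without the 3 arrays of lowest weight (0.21, adjusted p = 0.0703), without quadriceps cKO 5 (0.30, adjusted p = 0.0525), after median centring (0.28, adjusted p = 0.0886) and after centring on the 75th percentile (0.27, adjusted p = 0.063). The sum of the 9 fibre markers moved with it in quadriceps, running from 41708.4 to 47562.0 in controls and from 48661.4 to 51379.2 in cKO. Its genes went both ways: Myh7 (2.33, adjusted p = 4.82e-08) and Tnnt1 (1.98, adjusted p = 1.16e-08), both of slow fibres, rose with Mb and Des, while Ckm and Tnnt3 fell and Acta1, Myh4 and Ttn did not pass. Their part in the Akt1 and Akt2 levels was not tested. Soleus read below quadriceps by 0.48 in controls (SE 0.07, 1.39-fold, adjusted p = 4.38e-06) and by 0.80 in cKO (SE 0.07, 1.74-fold, adjusted p = 2.36e-09), in 6 of 6 same-numbered pairs of each genotype.

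The array annotation pairs 2 probe sets with Akt2, and RefSeq lists a pseudogene, Akt2-ps. No probe positions were at hand, so the copy that each probe set reads was not tested and the level of Akt2 is uncertain. Probe set numbers of the other members are grouped by chromosome. The brighter Akt2 set, 10374364, falls between those of Igf1 on chr10 (10365559) and Igfbp4 on chr11 (10381096). The dimmer, 10551393, falls near that of Igf1r (10554094) on chr7, where Akt2 lies. The Akt2 values above and in the figures come from the brighter set and may thus read another locus. The other probe set gave the same order of the muscles, with means of 9.44 ± 0.25 in quadriceps controls, 9.89 ± 0.12 in quadriceps cKO, 9.08 ± 0.16 in soleus controls and 9.02 ± 0.04 in soleus cKO (SD, n = 6 each). On it the quadriceps controls (9.01 to 9.67) overlapped the soleus controls (8.84 to 9.26). Its cKO change was 0.46 in quadriceps (adjusted p = 0.000384) and -0.07 in soleus (adjusted p = 0.67), with a difference of 0.52 (adjusted p = 0.0107).

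Eif4ebp1 (Entrez gene 13685, chr8:27260327-27275656), the translation repressor at the end of the route, was called in none of the 5 comparisons. It ran from 7.45 to 7.96 in quadriceps controls, from 7.63 to 7.83 in quadriceps cKO, from 7.52 to 7.99 in soleus controls and from 7.78 to 8.07 in soleus cKO. The 4 group means lay within 0.15 of each other and all ranges overlapped. The cKO change was 0.03 in quadriceps (95% interval -0.15 to 0.21, adjusted p = 0.824) and 0.12 in soleus (95% interval -0.06 to 0.30, adjusted p = 0.352).

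Between the muscles, 2 members were higher in soleus (Igf1r and Akt1) and 2 lower (Igfbp5 and Akt2) in controls, where 33.5% of all genes were called, 15.2% higher and 18.3% lower. In cKO none was higher and the same 2, Igfbp5 and Akt2, were lower, where 28.8% of all genes were called, 11.9% higher and 16.9% lower. Every soleus array lay below every quadriceps array for Akt2 in controls, as for 7.73% of all genes, and for Igfbp5 and Akt2 in cKO, as for 10.6%. For Akt2 in controls this held on the brighter probe set only: on the other, quadriceps (9.01 to 9.67) and soleus (8.84 to 9.26) overlapped. No member had every soleus array above, as 3.94% of all genes did in controls and 5.33% in cKO. These comparisons use the same arrays as the cKO comparisons, so their values are set side by side and not counted as separate evidence. In cKO, Igfbp3, Igfbp4, Igfbp5 and Akt2 were lower with the animal as a random or a fixed block, and the fixed block alone added Irs1 and Irs2 as higher, for 4 and 6 members in all.

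Around the members, 73 other genes of the pathway were listed by role, of which 67 were tested. They too were listed with earlier results of these data known, so their shares are description and not a test of the pathway. In cKO quadriceps 26 of them (38.8%) were higher and 14 (20.9%) lower, with a median of 0.14, beside 22.3% and 17.7% of all genes. With 75th percentile centring 17 (25.4%) were higher and 17 (25.4%) lower, beside 2678 higher and 4460 lower of all 15999 genes. In cKO soleus 17 (25.4%) were higher and 9 (13.4%) lower, with a median of 0.02, beside 13.2% and 9.94% of all genes. Among ligands and carriers, 4 of 12 rose and 1 fell in quadriceps, and 3 rose and none fell in soleus. The fetal ligand Igf2 rose by 1.68 in quadriceps (SE 0.14, adjusted p = 5.77e-10) and by 0.86 in soleus (SE 0.14, adjusted p = 5.11e-05), a difference of 0.83 between the muscles (adjusted p = 0.00771). Its clearance receptor Igf2r rose by 0.84 (adjusted p = 1.84e-06) and 0.99 (adjusted p = 3.34e-07). Of 13 receptors and proximal signalling genes 6 rose and 2 fell in quadriceps, and 4 rose and 2 fell in soleus. The growth hormone receptor Ghr, which acts upstream of Igf1 transcription, fell by 0.72 in quadriceps (adjusted p = 5.68e-05) and by 0.75 in soleus (adjusted p = 6.03e-05). Grb14, an adaptor that inhibits the insulin receptor, fell by 1.62 in soleus (adjusted p = 7.92e-07) and by 0.58 in quadriceps (adjusted p = 0.0237), a difference of 1.04 (adjusted p = 0.0163).

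Among 9 genes of PI3 kinase and phosphatases, 4 rose and 1 fell in quadriceps, and 3 rose and 1 fell in soleus. The shares of all genes were 22.3% higher and 17.7% lower in quadriceps, and 13.2% higher and 9.94% lower in soleus. The regulatory subunit Pik3r3 rose by 1.20 in quadriceps (adjusted p = 1.18e-06) and by 0.64 in soleus (adjusted p = 0.00385). The difference between these changes, 0.56, did not pass (adjusted p = 0.102). Pik3r1 rose by 0.81 in quadriceps (adjusted p = 1.39e-05). In soleus Pik3r1 stood at -0.05 (adjusted p = 0.828), a difference of 0.86 between the muscles (adjusted p = 0.00249). Akt's regulators and substrates went both ways, with 5 of 16 higher and 7 lower in quadriceps and 3 higher and 4 lower in soleus. The glucose uptake regulator Tbc1d1 fell by 0.92 in quadriceps (adjusted p = 0.000385) and by 0.81 in soleus (adjusted p = 0.00233), and Tbc1d4 fell by 1.16 in soleus (adjusted p = 2.62e-05). Among the FoxO factors, Foxo1 rose in quadriceps by 1.01 (adjusted p = 0.00025), a change 0.92 above its change in soleus (adjusted p = 0.0332). Foxo3 rose by 0.39 in quadriceps (adjusted p = 0.00265) and by 0.33 in soleus (adjusted p = 0.0159). Foxo4 fell in quadriceps by 0.78 (adjusted p = 2.12e-07), and the difference between its changes, quadriceps minus soleus, was -0.61 (adjusted p = 0.00302). The Foxo1 difference was lost on leaving out any 1 of 9 arrays (adjusted p up to 0.0664).

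Of 17 genes of the mTOR complexes and translation, 7 rose and 3 fell in quadriceps, and 4 rose and 2 fell in soleus. Of all genes, 22.3% rose and 17.7% fell in quadriceps, and 13.2% rose and 9.94% fell in soleus. The stress-induced sestrin Sesn3, which restrains mTOR complex 1, rose by 1.84 in quadriceps (SE 0.14, adjusted p = 6.54e-11) and by 1.05 in soleus (SE 0.14, adjusted p = 1.94e-06). Sesn1 rose by 0.79 in soleus (adjusted p = 1.69e-05) and by 0.35 in quadriceps (adjusted p = 0.0228), and these changes did not pass as different (adjusted p = 0.0896). The translation inhibitor Pdcd4 rose by 1.18 in quadriceps (adjusted p = 7.61e-06). Ddit4l, another mTOR inhibitor, went the other way, by -0.99 in quadriceps (adjusted p = 0.00072) and -1.54 in soleus (adjusted p = 6.06e-06). Eif4ebp2, of the same repressor family as Eif4ebp1, fell in quadriceps by 0.65 (adjusted p = 1.48e-06). The difference between its changes, quadriceps minus soleus, was -0.49 (adjusted p = 0.00918). The mTOR complex 1 inhibitor Akt1s1, which is also an Akt substrate, fell in quadriceps by 0.39 (adjusted p = 0.0013), with a difference between the changes of -0.50 (adjusted p = 0.0114). Over the lists 10 genes (14.9%) passed that test of the difference, 7 higher and 3 lower, beside 12.3% of all genes. With the animal as a fixed block 17 passed, while the count over all genes went from 1966 to 2866.

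**Figure D4:**
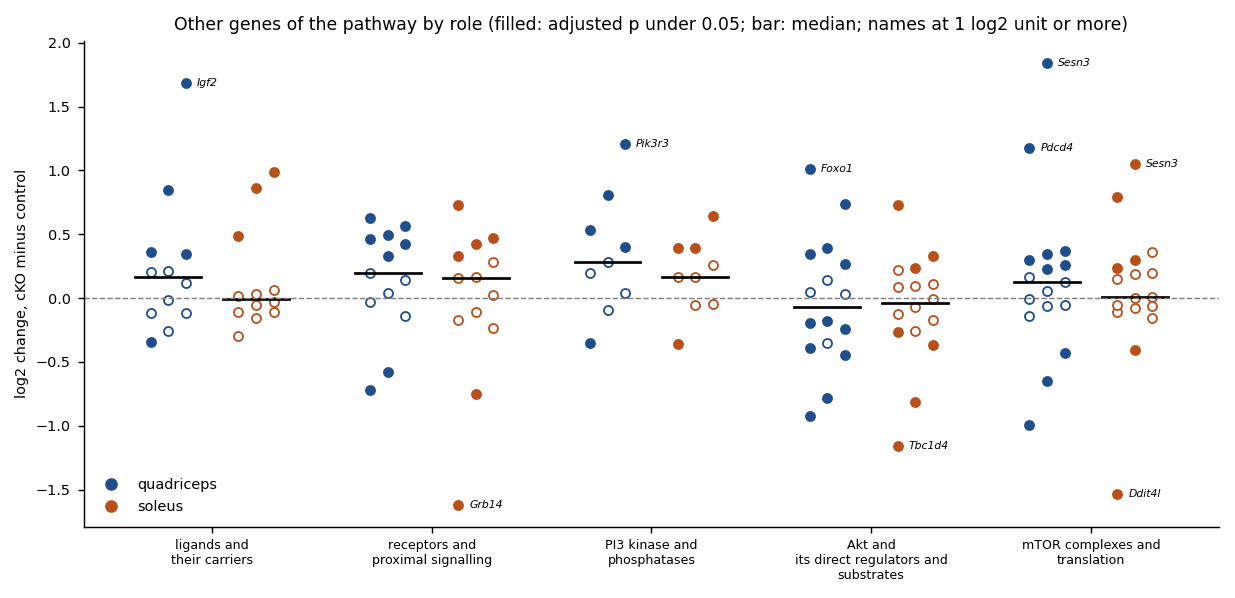
Log2 change, cKO minus control, of the 67 other pathway genes by role, in quadriceps (blue) and soleus (orange); filled points passed an adjusted p of 0.05, bars are medians, and genes at 1 log2 unit or more are named. Igf2, Pik3r3, Foxo1, Pdcd4 and Sesn3 stand highest in quadriceps, and Grb14, Ddit4l and Tbc1d4 lowest in soleus.

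Between control muscles, 11 of the 67 genes were higher and 10 lower in soleus, or 31.3% called beside 33.5% of all genes. The balance moved with the scaling: 6 were higher and 20 lower after median centring, 15 and 10 after 75th percentile centring, and 16 and 9 after quantile normalization. The mTOR inhibitors Ddit4l (-1.18, adjusted p = 0.00014) and Deptor (-1.02, adjusted p = 0.000462) and the IGFBP protease Pappa2 (-0.83, adjusted p = 8.01e-05, and -0.49 with 16 added before log2) were lower there. Grb14 (0.69, adjusted p = 0.00937), Igf2 (0.59, adjusted p = 0.00225) and Rptor (0.55, adjusted p = 5.17e-05), the scaffold of mTOR complex 1, were higher. In cKO 5 were higher and 13 lower in soleus (26.9% called beside 28.8% of all genes), against 3 and 14 after median centring, 11 and 10 after 75th percentile centring and 7 and 11 after quantile normalization. Lower again were Ddit4l (-1.72, adjusted p = 1.77e-06), Deptor (-1.06, adjusted p = 0.000522) and Pappa2 (-1.06, adjusted p = 6.65e-06, and -0.62 with 16 added).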

How the data were processed

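Values are probe set intensities on a linear scale, from 1.76 to 10075, as the authors deposited them; per the submitters' processing notes they come from Affymetrix Expression Console with RMA and build mm10. Versions and settings were not given in those sources. In all, 35557 probe sets were read, of which 21789 carry 1 gene symbol, 1621 several and 12147 none listed here; only the first kind was used, and 21698 matched RefSeq (GRCm38.p6) by Entrez number. Values were turned to log2, and a gene was kept if above its array's 30th percentile on at least 6 arrays (15999 kept, 3939 dim). limma 3.58.1 in R 4.3.3 fitted 4 group means to all 24 arrays (20 residual degrees of freedom, prior 6.52), two-sided with Benjamini-Hochberg adjustment, after a test on simulated data. Precision is limited by 6 arrays a group.

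The members and lists were chosen with earlier results of these data known. Named genes are the members and, per comparison, up to 4 called pathway genes each way; the text names fewer. No member's group means spanned 1 log2 unit, so no genes of like pattern were sought. In deviations from the group means, muscles of 1 genotype and number correlated by 0.16 to 0.31 in controls and 0.22 to 0.45 in cKO. In each, 6 of 6 pairs lay above 0.1, so a number was taken as 1 animal in the blocked fits. The labels do not state it. Same-numbered quadriceps controls and soleus cKO, which are different mice, correlated by 0.04 to 0.27 (4 of 6 above 0.1). For quadriceps cKO and soleus controls it was -0.04 to 0.28 (1 of 6). Whether a number marks something shared across genotypes was not tested. Blocks, scalings, filters, an offset, probe set means, weights, age and single arrays left out were alternatives.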

Additional observations from a re-analysis of the deposited data

Results flagged for a closer look

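On 3 of 44 sets of 6 arrays (the 10 members and Neb in each group) 1 array lay apart from the other 5 by Dixon's criterion, which chance gives in about 1 of 20 sets. Igfbp4 read 7.75 in soleus cKO 6, against 8.27 to 8.51 on the other cKO soleus arrays. The same array had the lowest sums of macrophage markers (1173.3) and progenitor markers (7865.3) in its group, whose part was not tested. Without it the soleus change of Igfbp4 was 0.68 (limma adjusted p = 0.000225). Akt1 read 8.33 in quadriceps cKO 4, against 8.05 to 8.07 on the others. Akt2 read 10.77 in quadriceps cKO 5, against 10.65 to 10.68.

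On the brighter of its 2 probe sets, the cKO change of Akt2 differed between the muscles by 0.32 (limma adjusted p = 0.0291). It was higher in quadriceps, where all 6 cKO arrays exceeded all controls. On the dimmer set the difference was 0.52 (limma adjusted p = 0.0107). No other member passed this test in the main fit. The Akt2 call was lost in 3 of 15 alternatives and in 1 of 24 fits without 1 array. Akt1 passed with the animal as a random (limma adjusted p = 0.0379) or fixed block (0.0482). The dim second probe set of Irs1 passed the other way (-1.28, limma adjusted p = 0.00553).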

How the results depend on the processing

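Of the 16 member values called, 223 of 231 recomputed values stayed called in the same direction over 14 alternatives of scaling, filter, model and block and 1 chosen after seeing the data (without the 3 arrays of lowest weight), and 382 of 384 over the 24 fits without 1 array; none was called in the other direction. Of the 34 not called, 24 of 499 and 10 of 816 passed, and 20 and 18 turned sign without passing. The 6 quadriceps calls among members stayed 6 throughout. The soleus count of 3 was 5 with the number as a fixed replicate block (Igfbp3 at adjusted p = 0.0148 and Irs1 at 0.0233 added); same-numbered control and cKO arrays correlated by -0.15 to 0.17 in quadriceps (3 of 6 over 0.1, 2 of 6 best with their own number) and by 0.04 to 0.32 in soleus (4 of 6 for both). Not every pair passed 0.1, so this block was not taken as a pairing, though the soleus values may hint at one.

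For the difference between muscles the member count of 1 was 0 after median or 75th percentile centring, 2 with probe set means and with either animal replicate block, and 0 to 2 without single arrays. Soleus minus quadriceps gave 2 members, not 4, in controls after median centring. In cKO it gave 4, not 2, after median centring and with the number or the random animal block (Igfbp3 and Igfbp4 added by the blocks), and 6 with the fixed animal block. The 10 pathway genes whose changes differed were 16 with the random animal block, 17 with the fixed one and 16 without the 3 arrays of lowest weight. The 1966 such genes among all were 3570 with array weights, 2952 with the random animal block and 3675 without those 3 arrays. The causes were not tested. Apart from the calls given here and beside the results, a block changed no other member call. Array intensities carry no read depth, and all members lay above the dim limit.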
